A study of Mus musculus with 6 samples.

Results

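Mitochondrial fatty acid beta-oxidation genes were described in quadriceps, a thigh muscle, of ERRgamma transgenic and wild-type mice. The list names 35 genes for carnitine transport, the beta-oxidation cycle, its electron transfer chain and related steps. They were measured by every probe set of the array whose annotation names a single gene that is on the list. By this rule 34 of the 18193 genes named on single-gene probe sets were found, with 60 of the 45101 probe sets, while Cpt1b, the muscle form of carnitine palmitoyltransferase, is named only on a probe set shared with other genes and has no value here. All animals were male C57/BL6 mice of 8 weeks, with 3 arrays per genotype from separately numbered biological replicates. The transgenic animals carried ERRgamma, a nuclear receptor encoded by Esrrg, under a skeletal actin promoter, which is active in muscle fibres, and the wild-type animals carried no transgene according to the labels. How many founder lines were used, and whether the wild-type animals were littermates, is not given in the sources used here.

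Long-chain fatty acids enter mitochondria as carnitine esters, a step that malonyl-CoA inhibits. Inside, acyl-CoA dehydrogenases start a cycle of oxidation, hydration, oxidation and thiolysis that releases acetyl-CoA, and their electrons pass through the electron transfer flavoprotein to the respiratory chain. ERR receptors and PPAR receptors are known to activate many of these genes in muscle and heart, the Acadm promoter being a classical target of both.

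Values are MAS5 signals as deposited, on a linear scale and with the same trimmed mean of 200 on each array. Tests were run on log2(signal + 16), so changes of dim probe sets are understated, and all log2 differences are transgenic minus wild-type on this scale. A gene passed if its limma p, adjusted by Benjamini-Hochberg over all 26995 probe sets tested, was under 0.05. A gene is represented by its brightest single-gene probe set. The Esrrg probe set that checks the labels gave 71.6, 61.0 and 24.1 in the wild-type arrays and 14427, 13808 and 12697 in transgenic muscle, while the other Esrrg probe sets did not pass. Median signals ran from 52.1 to 61.9, and Spearman correlations from 0.935 to 0.955 within and from 0.906 to 0.930 between genotypes. The muscle markers Acta1 and Ckm were at 15346 or higher and at 16537 or higher on every array, and Myh6 and Nppa of heart and Apoa1, Ttr and Cps1 of liver were below the filter on low signal. Of the same lists Alb, Ryr2 and Tnnt2 passed the filter, with wild-type means of 45.1, 65.2 and 38.3, and did not pass the test. Of 11 skeletal muscle fibre markers, 3 were called higher (Myh2, Mb and Myh1), 0 lower, and 8 did not pass, Acta1 and Ckm among them. Among all genes tested, 7.65% were called higher and 5.75% lower. The summed signal of the fibre markers ran from 138702 to 173772 in wild-type and from 176144 to 202184 in transgenic muscle. The number of arrays limits the precision.

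Of 34 member genes, 23 rose in transgenic muscle, 0 fell and 11 did not pass. Among all 12529 genes tested, 7.65% were called higher and 5.75% lower. The median log2 difference was 0.79 over the member genes and 0.03 over all genes. Of those called, 10 rose at least 2-fold, and the ratio of mean signals ran from 1.37 for Acad9 to 3.47 for Acaa2. In 25 member genes every transgenic array lay above every wild-type array, and in 0 below it. These are the 23 that passed, Crat, and Acot1. Over all genes these shares were 18.6% and 14.7%. The filter on low signal kept all 34 genes, but Acot1 passed it through its transgenic mean only and had to be high there.

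**Figure D1:**
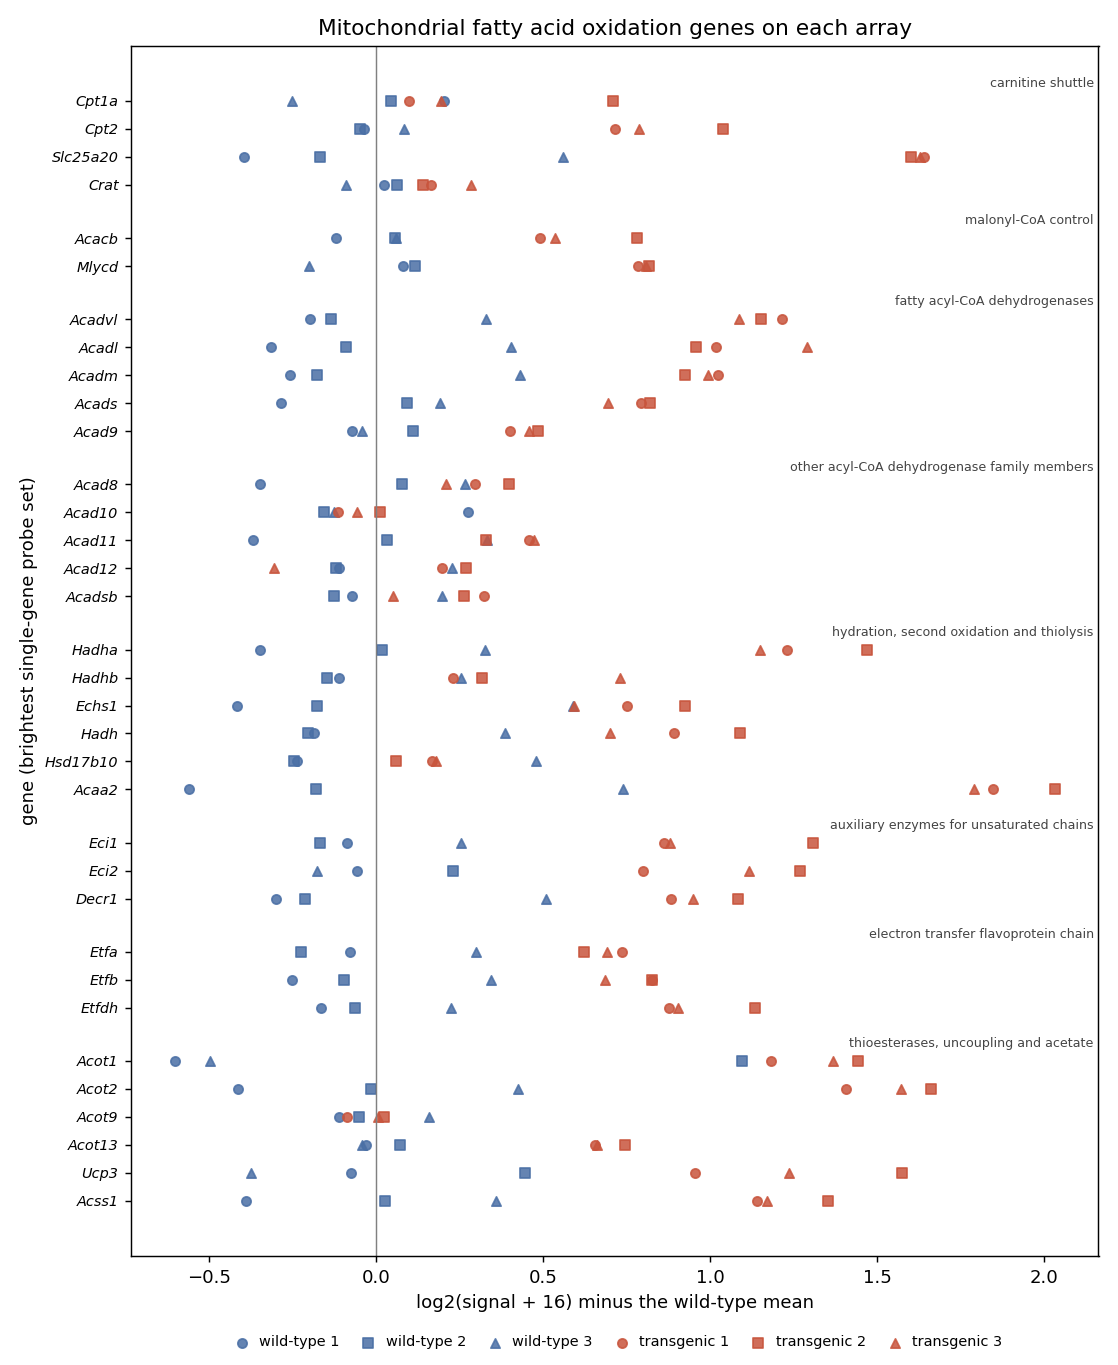
Signals of 34 fatty acid oxidation genes on each array as log2(signal + 16) minus the wild-type mean of the gene, with genes in rows by role, wild-type arrays in blue and transgenic arrays in red. In 25 genes the red symbols lie entirely to the right of the blue ones, and wild-type 3 (blue triangles) is the highest wild-type array in 25 genes.

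Upstream sequence is shown for Hadha and Hadhb, whose products form a single complex, for Acadm as a known target, and for Slc25a20, whose rise was the largest in the carnitine shuttle. The sequences come from RefSeq promoter windows of build GRCm38.p6, which matched 29 of the 35 members. Hadha and Hadhb lie head to head, with 272 bases between their start sites at chr5:30154981-30155252, so their promoter windows overlap by 228 bases. The sequence between the starts is given on the plus strand, on which Hadhb is transcribed, while the others, the 250 bases before the start, are given on the strand of the gene (chr3:153944644-153944893, minus, for Acadm and chr9:108661886-108662135, plus, for Slc25a20). Capitals mark the letters AAGGTCA or their reverse complement, which occur here in the Acadm sequence only.
Hadha-Hadhb: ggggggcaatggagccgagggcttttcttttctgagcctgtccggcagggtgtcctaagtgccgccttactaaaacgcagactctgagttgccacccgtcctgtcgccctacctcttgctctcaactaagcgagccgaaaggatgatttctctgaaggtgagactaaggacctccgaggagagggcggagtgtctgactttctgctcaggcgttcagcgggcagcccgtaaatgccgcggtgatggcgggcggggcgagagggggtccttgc
Acadm: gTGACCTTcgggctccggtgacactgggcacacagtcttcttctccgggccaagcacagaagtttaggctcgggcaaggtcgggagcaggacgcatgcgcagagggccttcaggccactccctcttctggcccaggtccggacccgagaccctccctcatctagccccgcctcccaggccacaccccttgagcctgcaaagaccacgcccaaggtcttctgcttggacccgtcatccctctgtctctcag
Slc25a20: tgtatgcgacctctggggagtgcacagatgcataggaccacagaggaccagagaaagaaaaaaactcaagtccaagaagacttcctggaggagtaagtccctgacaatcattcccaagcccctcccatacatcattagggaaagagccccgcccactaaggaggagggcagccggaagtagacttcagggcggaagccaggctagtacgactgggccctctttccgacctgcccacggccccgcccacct

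The windows hold 250 bases before and 50 from the start, and were searched on both strands. The extended ERR element TNAAGGTCA was in 0 of 29 member windows and in 1.28% of all 32851 windows. Its core AAGGTCA, which every TNAAGGTCA contains, was in 2 member windows, those of Acadm and Acacb (6.90%), against 4.72% of all windows. The PPAR direct repeat, with AGGTCA, any base N and AGGTCA again, holds the core wherever N is A and was in 0 member windows and in 0.0396% of all. A match is a description of letters, and a window without one says only that these letters are not in it.

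In the carnitine shuttle, the translocase and the inner-membrane transferase rose, and the measured outer-membrane transferase and carnitine acetyltransferase did not pass at their brightest probe sets. Slc25a20, the carnitine-acylcarnitine translocase, gave signals of 673, 791 and 1320.2 in the wild-type arrays and 2809, 2733 and 2781 in transgenic muscle. The transgenic arrays were close together, and all lay above the wild-type arrays, of which the third was highest. The mean rose 2.99-fold (log2 difference 1.62, SE 0.20, limma adjusted p = 0.000652), and its other probe set also rose (1.34, SE 0.14). Cpt2, which reforms acyl-CoA in the matrix, went from 1286, 1277 and 1399 to 2177, 2727 and 2288, with no overlap (log2 difference 0.85, SE 0.11, limma adjusted p = 0.000915). A much dimmer Cpt2 probe set overlapped between genotypes and did not pass, with a log2 difference of 0.32.

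Cpt1a, the form of the outer-membrane transferase prominent in liver, gave 218, 194 and 155 in the wild-type arrays and 202, 316 and 216 in transgenic muscle. Its ranges overlapped (log2 difference 0.33, 95% interval -0.09 to 0.76, limma adjusted p = 0.309). Crat, which exchanges acetyl groups between CoA and carnitine, showed a small difference without overlap at its brightest probe set, from 2673, 2744 and 2466 to 2946, 2898 and 3201 (log2 difference 0.20, SE 0.09, limma adjusted p = 0.221). A dimmer Crat probe set rose by 0.60 (SE 0.13, limma adjusted p = 0.0143) and the dimmest did not pass at 0.42. With the mean of its probe sets in place of the brightest, Crat passed (log2 difference 0.41, limma adjusted p = 0.0277). The call for Crat thus differs between its probe sets.

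The enzymes that make and break down malonyl-CoA, the inhibitor of carnitine entry, both rose. Acacb, the acetyl-CoA carboxylase of the outer mitochondrial membrane, went from 1386, 1570.3 and 1571 to 2123, 2602 and 2193 (log2 difference 0.60, SE 0.11, limma adjusted p = 0.00606). Mlycd, malonyl-CoA decarboxylase, went from 494, 508 and 404 to 814, 834 and 828 (log2 difference 0.80, SE 0.12, limma adjusted p = 0.00190). In both, every transgenic array was above every wild-type array.

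The acyl-CoA dehydrogenases named for very long, long, medium and short chains and Acad9, 5 genes in all, rose, ordered in size of log2 difference as very-long, long, medium and short chain, with Acad9 last. The 95% intervals of the genes named for chain lengths all overlapped each other, even those of Acadvl (0.85 to 1.45) and Acads (0.46 to 1.08). Overlap of separate intervals is not a test of a difference. These genes were not compared with each other within arrays, so their order by chain length was not tested. The interval of Acad9, 0.20 to 0.69, lay below those of Acadvl and Acadl only. Acadvl, for very long chains, gave 2116.5, 2213 and 3058 in the wild-type arrays and 5661, 5413 and 5174 in transgenic muscle (2.20-fold, log2 difference 1.15, SE 0.13, limma adjusted p = 0.000487). Acadl, for long chains, gave 2956, 3453 and 4869 against 7454, 7151 and 9006 (log2 difference 1.09, SE 0.17). Acadm, for medium chains, gave 3639.6, 3847 and 5863 against 8853, 8264 and 8667 (log2 difference 0.98, SE 0.16, limma adjusted p = 0.00281). In these 3 genes wild-type 3 was the highest wild-type array, and the genotypes did not overlap. A dim second Acadl probe set, which passed the filter through its transgenic mean only, did not pass the test (0.92).

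Acads, for short chains, rose from 366, 480.2 and 516 to 790.4, 805 and 737 (log2 difference 0.77, SE 0.14, limma adjusted p = 0.00537). Acad9, which also serves in the assembly of complex I, rose from 493, 562 and 504 to 689.9, 732 and 719 (log2 difference 0.45, SE 0.11, limma adjusted p = 0.0252). Its other tested probe set did not pass, with a log2 difference of -0.01 and overlapping arrays. The Acad9 call was lost without wild-type 1 (limma adjusted p = 0.107), transgenic 1 (0.0656), transgenic 2 (0.0683) or transgenic 3 (0.0644), after scaling the arrays to a common median (0.164), without the intensity trend in eBayes (0.0842), in the comparison of 2 arrays against 2 described further on (0.0670), and with the mean of its probe sets, where the log2 difference was 0.22 (0.193).

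None of the other 5 acyl-CoA dehydrogenase genes passed at the brightest probe set. Acad8 and Acadsb, which act in the catabolism of valine and of isoleucine, gave log2 differences of 0.30 (95% interval -0.05 to 0.65) and 0.21 (-0.07 to 0.49). Acad10 and Acad12, whose functions are less settled, gave -0.052 (-0.43 to 0.32) and 0.055 (-0.39 to 0.50), and their signs turned under other settings, Acad10 to 0.086 without wild-type 1 and Acad12 to -0.081 after median scaling. In all 4 the genotypes overlapped. Acad11, which acts on very long chains, gave 778, 1032 and 1276 in the wild-type arrays and 1393, 1273 and 1406 in transgenic muscle, with wild-type 3 inside the transgenic range. Its log2 difference was 0.42 (SE 0.16, limma adjusted p = 0.121), but the dimmer Acad11 probe set rose (0.66, SE 0.15, limma adjusted p = 0.0197), and without wild-type 3 the brighter did too (0.59, limma adjusted p = 0.0171).

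**Figure D2:**
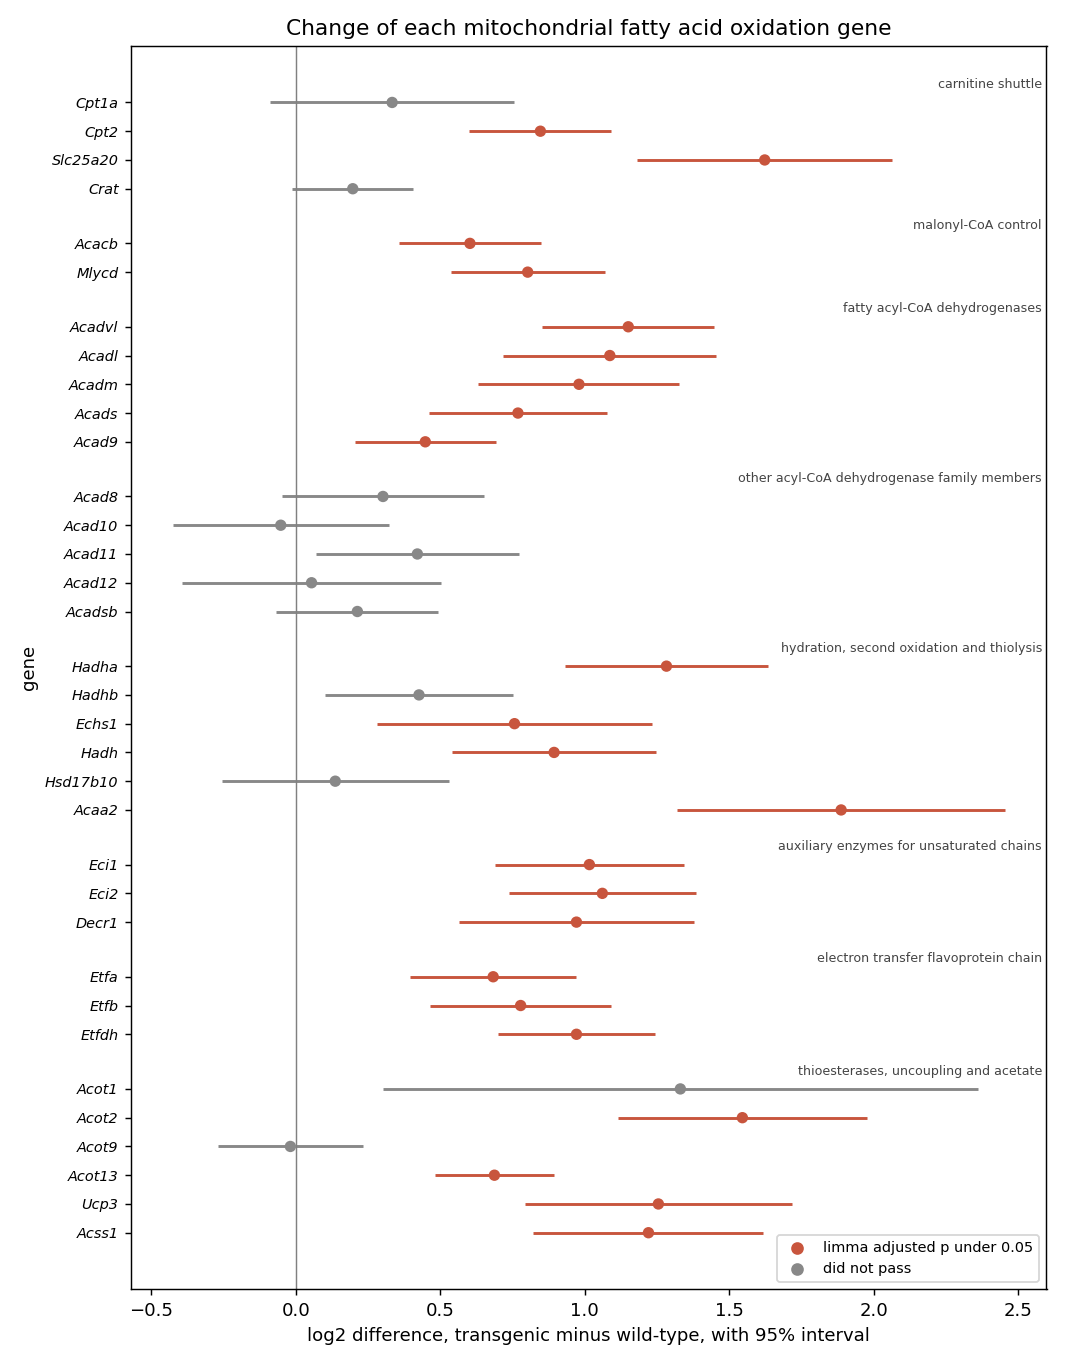
Log2 difference between genotypes for each of 34 genes at its brightest probe set, with its unadjusted 95% interval from limma, in rows by role. Red genes, 23 in all, passed at an adjusted p under 0.05, and 5 of the grey genes are Acad8, Acad10, Acad11, Acad12 and Acadsb.

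Acaa2, the thiolase of the mitochondrial cycle, had the largest log2 difference of all members. Its brightest probe set gave 906, 1185 and 2251 in the wild-type arrays and 4865, 5534 and 4679 in transgenic muscle, a 3.47-fold rise (log2 difference 1.89, SE 0.26, limma adjusted p = 0.00111). The other Acaa2 probe sets also passed, the larger of their log2 differences being 1.81. The wild-type arrays differed more among themselves than the transgenic arrays did, with the highest, wild-type 3, still below every transgenic array. Without it the log2 difference was 2.26.

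Hadha and Hadhb encode the subunits of the trifunctional protein, which carries out the later steps of the cycle on long chains. Hadha gave 1246, 1610.1 and 1996 in the wild-type arrays and 3748, 4425 and 3546 in transgenic muscle (2.41-fold, log2 difference 1.28, SE 0.16, limma adjusted p = 0.000685). The brightest Hadhb probe set, of a kind whose name marks possible cross-hybridization, gave 5315, 5183 and 6849 against 6738, 7155 and 9522. These ranges overlapped and it did not pass (log2 difference 0.43, SE 0.15, limma adjusted p = 0.0921). A dimmer Hadhb probe set gave 3646, 4003 and 5769.9 against 7616, 8782 and 7420.2, with no overlap (log2 difference 0.85, SE 0.16, limma adjusted p = 0.00577). Names of the brightest Hadh and Acadsb probe sets carry the same mark (_x), and those of Acaa2 and Acad11 another such mark (_s).

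The change in Hadha exceeded that of Hadhb by 0.86 at the brightest probe sets, and the within-array ratios did not overlap between genotypes. An exact two-sided permutation test gave p = 0.1, the smallest that 3 arrays against 3 allow (0.3 after adjustment over the 3 pairs compared). With 1 probe set of Hadhb at 0.43 and another at 0.85, the size of this gap depends on the probe set. The brightest Hadhb probe set passed without wild-type 3 (0.55, limma adjusted p = 0.0247) and with the replicate block (limma adjusted p = 0.0233).

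Hadh, the dehydrogenase for medium and short chains, rose at its brighter probe sets. At the brightest it gave 6196, 6123 and 9205 in the wild-type arrays and 13089, 15014 and 11445 in transgenic muscle (log2 difference 0.89, SE 0.16, limma adjusted p = 0.00497), and at the next the difference was 1.01. The dimmest probe set overlapped and did not pass, at 0.75. Echs1, the short-chain hydratase, gave 1055, 1247 and 2129.7 against 2385, 2694 and 2136. Wild-type 3 lay just under the lowest transgenic array, and the gene was near the threshold (log2 difference 0.76, SE 0.21, limma adjusted p = 0.0460). The Echs1 call was lost without wild-type 1 (limma adjusted p = 0.159), wild-type 2 (0.141), transgenic 1 (0.124), transgenic 2 (0.144) or transgenic 3 (0.0749), while without wild-type 3 the log2 difference was 1.05 (0.000559). It was also lost with median scaling (0.104), no filter (0.0916), no intensity trend (0.139), robust eBayes (0.0736), 1 as the added constant (0.0504) and probe set means (0.0511). Echs1 has 1 tested probe set, so in the last setting only the fit and the adjustment, both over genes, differed. Hsd17b10, which serves isoleucine and steroid metabolism, overlapped fully, at 769, 764 and 1269.8 against 1021, 947 and 1030.5 (log2 difference 0.14, limma adjusted p = 0.681). Without wild-type 3, its highest array, it passed (0.38, limma adjusted p = 0.0486), and after median scaling its sign turned (-0.014).

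The 3 enzymes that prepare unsaturated chains for the cycle all rose. Eci1, an enoyl-CoA isomerase, gave 1689, 1597 and 2146 in the wild-type arrays and 3276, 4473 and 3316 in transgenic muscle (log2 difference 1.02, SE 0.15, limma adjusted p = 0.00164). Eci2, an isomerase found also in peroxisomes, gave 824, 1008 and 756 against 1501, 2088 and 1875 (log2 difference 1.06, SE 0.15). Decr1, the mitochondrial dienoyl-CoA reductase, gave 1177, 1251 and 2071 against 2689, 3090.3 and 2813 (log2 difference 0.97, SE 0.18, limma adjusted p = 0.00697). The dimmer Decr1 probe set was higher by 1.44 (SE 0.11, limma adjusted p = 3.65e-05), the smallest adjusted p among member probe sets. The genotypes did not overlap in any of these.

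The electron transfer flavoprotein and its dehydrogenase, which pass the electrons of the acyl-CoA dehydrogenases to ubiquinone, rose together. Etfa, the alpha subunit, went from 2658, 2398 and 3457 to 4677, 4330.1 and 4535 (log2 difference 0.68, SE 0.13, limma adjusted p = 0.00697). Etfb, the beta subunit, went from 2126, 2369 and 3218 to 4496, 4498 and 4076 (log2 difference 0.78, SE 0.14, limma adjusted p = 0.00559). The changes of the subunits differed by -0.09 (Etfa minus Etfb), their within-array ratios overlapped, and the exact two-sided permutation p was 0.5. Etfdh, the dehydrogenase, went from 1662, 1784 and 2183 to 3434, 4108 and 3504 (log2 difference 0.97, SE 0.12, limma adjusted p = 0.000745). A second Etfdh probe set was under the filter and not tested, with 3.30, 14.4 and 5.90 against 62.4, 42.0 and 32.6.

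Of the thioesterases, which release free fatty acids from CoA, Acot2 and Acot13 rose, and Acot1 and Acot9 did not pass. Acot2, of the mitochondrial matrix, gave 122, 166 and 230.5 in the wild-type arrays and 470.5, 565 and 529.8 in transgenic muscle (3.02-fold, log2 difference 1.55, SE 0.20, limma adjusted p = 0.000735). Its dimmer probe set gave 0.64 and did not pass (limma adjusted p = 0.0763), although the genotypes did not overlap. Acot13, a thioesterase associated with mitochondria, rose from 1556, 1671 and 1542 to 2509, 2675 and 2524 (log2 difference 0.69, SE 0.09, limma adjusted p = 0.00109). Acot9, another mitochondrial member, showed no direction, at 706, 737 and 854 against 718, 776 and 767 (log2 difference -0.019, 95% interval -0.27 to 0.23), and its sign turned to 0.061 without wild-type 3.

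Acot1, the cytosolic relative of Acot2, was dim, at 3.80, 48.1 and 5.30 in the wild-type arrays and 52.1, 65.6 and 61.5 in transgenic muscle. The log2 difference of 1.33 had a wide 95% interval, 0.30 to 2.36, and did not pass (limma adjusted p = 0.0951). Acot1 had passed the filter through its transgenic mean only, so no call is read from it, also where the value without wild-type 2, its highest wild-type array, was past the threshold (1.88, limma adjusted p = 0.0252). The difference between the changes of Acot2 and Acot1 depended on the constant added to the signal, at 0.21 with 16, -0.77 with 1 and 0.71 with 64, and the pair is not compared further. Another probe set is annotated to both genes and was not used, so signal of these near relatives could be shared.

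Ucp3, the uncoupling protein of muscle mitochondria, rose at both probe sets. The brighter gave 518, 749.9 and 418 in the wild-type arrays and 1073, 1659 and 1309 in transgenic muscle (log2 difference 1.26, SE 0.21, limma adjusted p = 0.00343), and the other rose by 1.48 (SE 0.16). In contrast to most members, wild-type 3 was the lowest wild-type array for Ucp3. Acss1, which activates acetate in the matrix, rose from 167, 228 and 291 to 512, 595 and 523 (log2 difference 1.22, SE 0.18, limma adjusted p = 0.00174). A dim second Acss1 probe set overlapped and did not pass, at -0.09. With the mean of its probe sets in place of the brightest, the Acss1 call was lost (log2 difference 0.56, limma adjusted p = 0.190).

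Probe sets of the same gene often differed in whether they passed. Of 55 member probe sets tested, 32 rose, 0 fell and 23 did not pass, while 6.38% of all probe sets tested were called higher and 5.16% lower. In the 17 genes with at least 2 tested probe sets, all passed in 4 (Slc25a20, Acaa2, Decr1 and Ucp3), some in 9 and none in 4 (Cpt1a, Acad8, Acad10 and Hsd17b10).

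**Figure D3:**
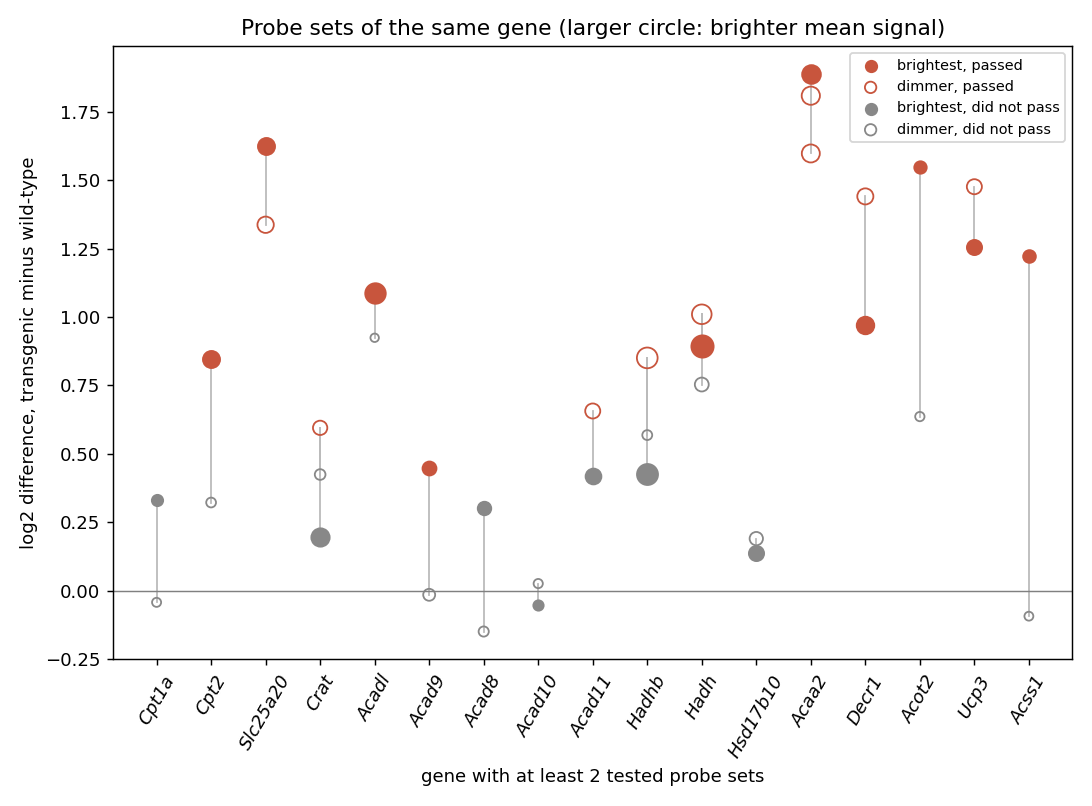
Log2 difference of each tested probe set in the 17 genes that have at least 2, with filled circles for the brightest probe set, open circles for dimmer ones, larger circles for higher mean signal and red for those that passed. The probe sets of Slc25a20, Acaa2, Decr1 and Ucp3 all passed, whereas those of Acss1 run from -0.09 to 1.22.

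Wild-type 3 was often the highest wild-type array in these genes, and white adipocyte markers, Ucp1 and Cidea were highest on the same array. It was the highest wild-type array in 25 of 34 member genes (73.5%), against 35.5% of all genes, with a median log2 excess of 0.38 over the mean of the others. Some related lists shared this. Highest there were 12 of 14 peroxisomal genes (85.7%, median excess 0.58) and 5 of 5 genes of carnitine synthesis and uptake (0.41). Fuel selection had 11 of 18 (61.1%, 0.28) and fatty acid uptake, binding and activation 7 of 13 (53.8%, 0.27). The tricarboxylic acid cycle, at 7 of 17 (41.2%, -0.013), and transcriptional regulators, at 6 of 15 (40%, -0.051), were nearer to all genes. Among the members, the carnitine shuttle had 2 of 4 (-0.0048). Skeletal muscle fibre markers were lowest on wild-type 3 in 9 of 11 genes, with a median excess of -0.22. All 6 genes of hydration, the second oxidation and thiolysis, and all 3 of the electron transfer group, were highest there. The log2 excess was 1.11 for Acaa2, 0.88 for Echs1, 0.84 for Slc25a20 and 0.76 for Decr1, while Ucp3 (-0.56), Cpt1a (-0.37) and Mlycd (-0.30) were lower there.

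Ucp1, the uncoupling protein of brown fat, gave 1596 on wild-type 3 and 40.5 and 15.7 on the other wild-type arrays. Ucp1 and Cidea were chosen after their values were seen. Of the 7 brown adipocyte markers measured, 3 were highest and 3 lowest on wild-type 3 among wild-type arrays, with a median log2 excess of -0.022. Elovl3, another of them, gave 25.9 there against 41.4 and 35.8. Cidea, a lipid droplet protein of brown fat, gave 2561 against 95.6 and 40.9. In transgenic muscle the highest array for both was transgenic 2, with 118 for Ucp1 and 537 for Cidea, against at most 44.3 and 56.5 on the others. All 7 white adipocyte markers measured, among them Adipoq at 8412 against 3217 and 2367, were also highest on wild-type 3 among wild-type arrays, by a median log2 excess of 1.82. Their summed signal was between 11937 and 28015 in wild-type muscle, and between 13054 and 18056 in transgenic muscle, most of it from Fabp4. Of the 7, 1 had a positive log2 difference between genotypes, the median was -0.73, and 0 passed. The summed signal of the 7 brown adipocyte markers ran from 15858 to 19444 and from 18392 to 20114, most of it from Cox8b and Cox7a1, which muscle also expresses. All 7 white adipocyte markers were highest on transgenic 2 among transgenic arrays, by a median log2 excess of 1.28. Transgenic 2 was the highest transgenic array in 24 of 34 member genes (70.6%), against 37.7% of all genes, with a median log2 excess of 0.12. Skeletal muscle fibre markers were highest there too, in 8 of 11 genes, with a median excess of 0.14.

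Without wild-type 3, all of the 23 genes still passed and Acad11, Hadhb and Hsd17b10 passed too, which made 26 of 34, where 8.05% of all genes were called higher. The median log2 difference was then 0.92. Leaving out the highest wild-type array of a gene must raise its difference, and wild-type 3 was that array in 25 of 34 members. Without wild-type 3 and transgenic 2, in a comparison of 2 arrays against 2 chosen after the data were seen, 25 rose and 0 fell, with a median of 0.87, where 7.37% of all genes were called higher. The spread within wild-type was wider than that within transgenic muscle in 27 of 34 member genes (79.4%), against 48.3% of all genes, and the median SD of log2(signal + 16) was 0.28 and 0.12.

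**Figure D4:**
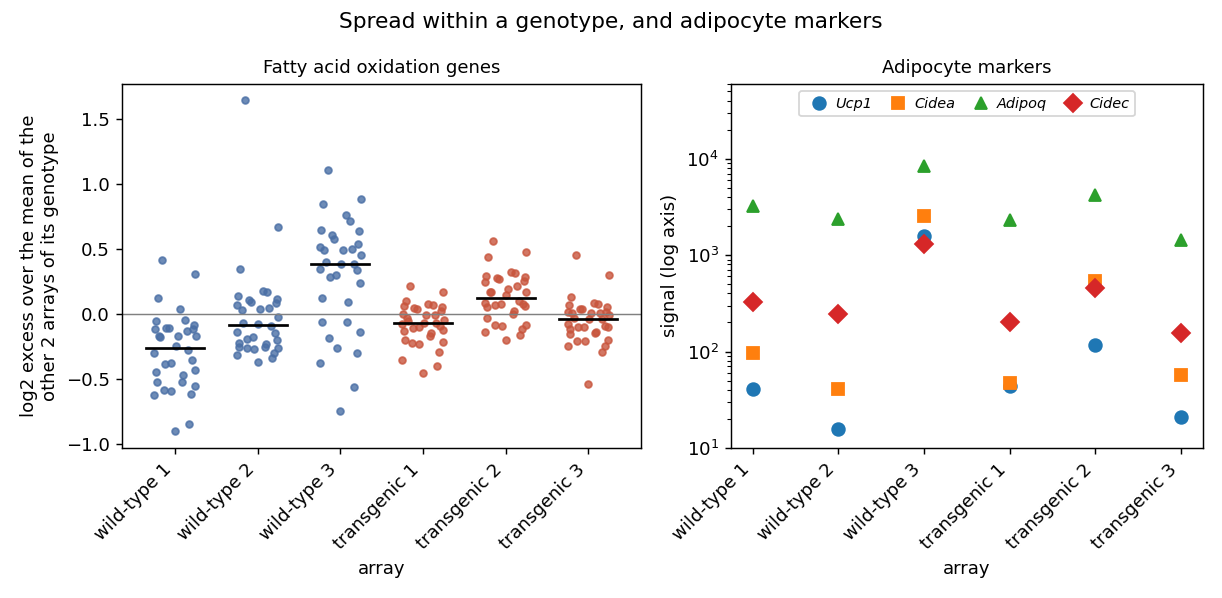
Left, log2 excess of each array over the mean of the other 2 arrays of its genotype for 34 fatty acid oxidation genes (points) with the median (bars). Right, signals of 4 adipocyte markers per array on a log axis. Wild-type 3 has the highest median excess, 0.38, and the highest signals of Ucp1 (1596) and Cidea (2561), which were chosen after their values were seen. Of the 7 brown adipocyte markers measured, 3 were highest and 3 lowest on wild-type 3 among wild-type arrays.

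The summed signals of markers of some other cell types also differed between genotypes. The summed signal of 10 endothelial markers was between 2756.5 and 3108 in wild-type muscle, and between 4775 and 5483 in transgenic muscle, with 7 of 10 higher, 0 lower and 3 not past the test. Macrophage markers (8) ran from 3771 to 4240 and from 2805 to 3404, and fibroblast markers (7) from 31823 to 37054 and from 30109 to 30331. In each of these 2 lists 1 gene was called lower (Lyz2 and Dpt) and 0 higher. The other 7 macrophage and 6 fibroblast markers did not pass. Among all genes tested, 7.65% were called higher and 5.75% lower. In whole muscle, fewer cells of a type and less RNA per cell cannot be told apart. The part of other cell types in the member genes was not tested.

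Genes of neighbouring steps were called in both directions. Among all genes tested, 7.65% were called higher and 5.75% lower, and the counts of this list and those below stand beside these shares. In fatty acid uptake, binding and activation, 4 of 13 genes tested rose (Fabp3, Gpihbp1, Got2 and Lpl) and 2 fell (Acsl3 and Acsl4), while 7 missed the threshold. The list had a median log2 difference of 0.07. Fabp3, the muscle fatty acid binding protein, rose by 1.89 (SE 0.15) from 2598, 4023 and 2837 to 10865, 11716 and 12014. Acsl3, an acyl-CoA synthetase, was lower by 2.43 on the log2 scale (log2 difference -2.43, SE 0.13), from 575, 696 and 596 to 98.8, 108 and 99.7. In neither gene did the genotypes overlap. Without wild-type 3, 7 rose.

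Peroxisomal beta-oxidation, which shortens very long chains, had 4 of 14 genes higher (Ech1, Acaa1a, Hsd17b4 and Abcd3), 2 lower (Pecr and Crot) and 8 not past the test, with a median of 0.01. Ech1, which serves mitochondria as well, went from 1773, 2129 and 2988 to 4880.4, 6107 and 4837 (log2 difference 1.22, SE 0.17), and Acaa1a, a peroxisomal thiolase, changed by 1.03 (SE 0.18). Leaving out any single array but wild-type 3 left 2 genes higher. In the tricarboxylic acid cycle, which oxidizes the acetyl-CoA released, 12 of 17 rose and 0 fell, with a median of 0.39, led by Idh2 (1.53, SE 0.12) and Idh3b (0.76, SE 0.18). That count was 4 without wild-type 1 or wild-type 2, 6 without transgenic 1, 7 without transgenic 2 or transgenic 3, and 10 without wild-type 3. In carnitine synthesis and uptake, the carnitine transporter Slc22a5 rose (0.62, SE 0.16) and 4 of 5 genes did not pass. This list had 3 genes higher without wild-type 3 and 0 without either other wild-type array, transgenic 2 or transgenic 3.

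Among transcriptional regulators, 5 of 15 rose (Esrrg, Ppara, Ppargc1b, Rxrb and Med1), 2 fell (Rxrg and Rxra) and 8 did not pass. Esrrg, counted here, is the gene of the transgene, so its rise was fixed by the design. Ppara, the PPAR receptor best known for inducing fatty acid oxidation, gave 100.4, 163 and 329.7 in the wild-type arrays and 420.2, 556 and 474 in transgenic muscle (log2 difference 1.36, SE 0.31, limma adjusted p = 0.0185). The coactivator Ppargc1a gave 632, 860.2 and 711 against 659, 815 and 720.1, and Esrra had means of 763 ± 193 and 925 ± 224 (SD, n = 3), both overlapping and not past the test. These 2 were chosen after their values were seen. With transgenic 1, transgenic 2 or either of the first 2 wild-type arrays left out, 3 regulators rose and 1 fell.

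In fuel selection and energy sensing, 2 of 18 rose and 2 fell, with a median of -0.23. Pdk4, the kinase that limits pyruvate oxidation, went from 3073, 4104 and 2818 to 7832, 10125 and 8945 (log2 difference 1.44, SE 0.15), and Prkag1 rose too. Prkag3 (-3.11, SE 0.16) and Prkab2, both subunits of AMP-activated protein kinase, fell. Only 1 gene rose without wild-type 1, transgenic 1 or transgenic 2.

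**Figure D5:**
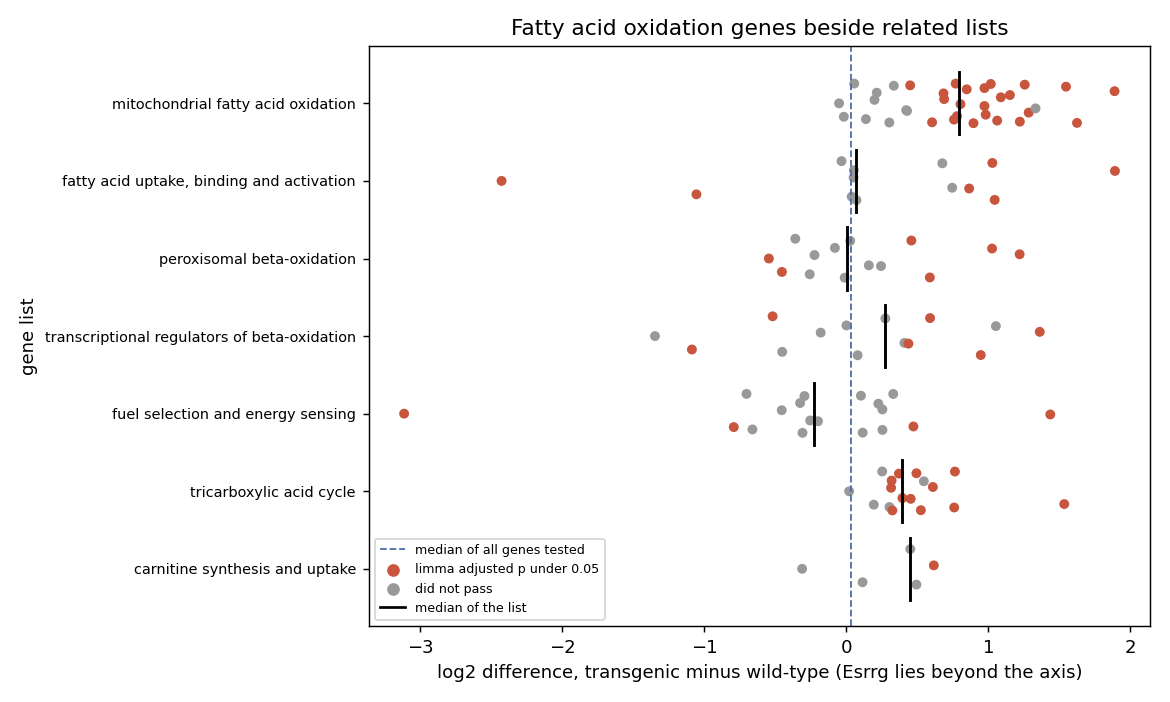
Log2 difference of each gene tested, by list, with the list's median as a black bar and the median of all genes tested, 0.03, as a dashed line (Esrrg, at 7.72, lies beyond the axis). The 34 mitochondrial fatty acid oxidation genes have a median of 0.79 and 0 genes called lower. The lists of the tricarboxylic acid cycle (median 0.39, 12 of 17 higher) and of carnitine synthesis and uptake (0.45, 1 of 5 higher) also have 0 called lower. As 5.75% of all genes tested were called lower, 0 in lists of 17 and 5 genes is not read as a result. The peroxisomal list has a median of 0.01 with calls on both sides.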

How the data were processed

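Total RNA of the quadriceps (Trizol) was made into biotin-labelled cRNA, per the labels' protocols, and hybridized to 3 wild-type and 3 transgenic arrays. The submitters' processing notes name MAS5 as the tool, and the deposited values are linear signal intensity. No version or setting of it is stated in the labels, and detection calls were not used. The mean signal without the highest and lowest 2% is 200 on each array.

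Signals were tested as log2(signal + 16) with limma 3.58.1 in R 4.3.3 (lmFit, eBayes with an intensity trend), over the 26995 probe sets whose mean signal was above the 40th percentile of all, 37.8, control probe sets left out. Gene names are the platform annotation's (34945 probe sets with 1 gene, 932 with several, 9160 with none listed). Pairs of members were compared by exact permutation. The limma test was checked on simulated data with independent noise and planted changes. These held no shift shared by many genes of an array, so they do not bear on arrays such as wild-type 3. Alternatives changed the constant, filter, scaling, eBayes settings, probe set choice, replicate block and arrays used. With probe set means, limma was fitted to 1 mean per gene and p was adjusted over 12529 genes in place of probe sets. Sequences are RefSeq's. Plots were drawn with matplotlib 3.10.9.

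The members and lists were chosen with earlier results of these data known. All members are named. Of other lists, the 2 genes with the largest change among those that passed were named by rule, and other names were chosen after their values were seen.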

Additional observations from a re-analysis of the deposited data

How the results depend on the processing

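The count of member genes that rose was 16 to 26 under all alternatives run, with 0 lower under each. It was 16 without the intensity trend in eBayes, and 21 to 26 with an array left out. Their median log2 difference was 0.64 to 0.92. Of 23 genes called, 15 stayed called under each alternative run and 8 were lost under at least 1. Acacb, Decr1, Etfa, Etfb and Hadh were lost without the intensity trend only (limma adjusted p = 0.0546, 0.0553, 0.0599, 0.0525 and 0.0504), Acss1 with probe set means only, and Acad9 and Echs1 under several. The count of all probe sets called was 1584 without the intensity trend and ran from 1705 to 3301 with an array left out. After scaling the arrays to a common median, the median over all genes moved from 0.03 to -0.11 and the calls from 1721 higher and 1394 lower to 973 higher and 2390 lower, with 21 member genes higher. The replicate block gave 24 member genes and 2744 probe sets. Correlations of deviations between arrays of the same number were 0.0701, -0.0770 and -0.0220, so the numbers are not shown to pair animals.

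Signs that turned belong to genes that did not pass, and to a pair difference. Acad12 was -0.081 with median scaling, -0.012 with quantile normalization, and from -0.053 to 0.23 with an array left out. Acad10 ran from -0.13 to 0.086 with an array left out, the highest without wild-type 1. Hsd17b10 was -0.014 with median scaling. Acot9 was 0.0050 with quantile normalization, 0.040 in the comparison of 2 arrays against 2, and from -0.074 to 0.061 with an array left out. The Acot2 and Acot1 difference was -0.77 with 1 added in place of 16, and from -0.34 to 0.67 with an array left out. The cause was not tested. Of 216 counts for related lists under alternatives, 169 were within 1.5 times the value reported.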
